A study of Homo sapiens with 6 samples.

Results

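The 139 genes described here encode membrane transporters of the solute carrier (SLC) superfamily that sit in the plasma membrane or, for some families, in the membranes of organelles. They were chosen by name and by a measured level: of the 12227 entries in the deposited table (called genes here), 193 have an SLC or SLCO symbol, for 192 genes, since SLC25A6 is entered on both X and Y with identical values. Of these genes, 35 SLC25 genes (mitochondrial carriers) and 13 genes set aside by name (14 were named, of which 13 are in the table) were left out, and 5 fell below a mean of 5 over the 6 libraries. The minimum mean was the value used in the choice, so the levels below are given as a description. Just above it lay SLC44A4 (mean 5.04), SLC22A31 (5.39) and SLC22A15 (5.59), and just below it SLC24A1 (4.78), SLC46A3 (4.18) and SLC28A1 (4.10). The highest mean was 472, for SLC38A1. The genes were proposed with differences between the groups already known, so counts over the members are descriptions and not independent tests.

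The study concerns inhibitors of the kinase activity of VprBP and growth of prostate tumours. Cells treated with inhibitors were not analysed here. RNA sequencing was done on PC3, an established human cell line from a prostate cancer metastasis, grown in DMEM with 10% fetal bovine serum and antibiotics at 37 C and 5% CO2. Both groups are PC3 cells carrying a short hairpin RNA (shRNA). The 3 control libraries are labelled wild type (WT) with control shRNA, and the 3 knockdown libraries carry shRNA against VprBP, the substrate receptor encoded by DCAF1. What the numbers sh1 to sh3 in the labels refer to (hairpin, culture or library) is left unsaid there. The p-values thus reflect only the spread between these libraries, part or all of which may be technical. In bulk RNA, fewer cells that make a transcript and less transcript per cell cannot be told apart.

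Solute carriers move nutrients, ions, metals, vitamins and drugs across membranes. Some are facilitators that let a solute run down its own gradient, and others couple uptake to sodium, protons or an exchanged anion. Families are defined by sequence similarity, so members of a family often share a class of substrate but can differ in membrane, direction and affinity. In tumour cells they are known as the entry points for glucose, amino acids and micronutrients and as exits for acid.

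DCAF1, the gene targeted by the shRNA, had deposited values of 79.4, 78.5 and 78.7 in the control libraries and 38.5, 41.1 and 40.2 in the knockdown libraries. Its level in the knockdown group was 50.6% of control (log2 fold change -0.97, SE 0.05, limma Benjamini-Hochberg adjusted p = 3.56e-11). An exact two-sided permutation test gave p = 0.1, the smallest value that 3 libraries against 3 allow. Depth over the listed genes, estimated from the spacing of low values, was 22981870 to 32293186 reads in control libraries and 23029460 to 39633883 in knockdown libraries. The lowest estimated read number of any member in any library was 83, for SLC22A31. Of 11 prostate and PC3 markers 8 were listed, with summed values of 1164 to 1185 in control and 1692 to 1749 in knockdown libraries. KLK3 and FOLH1 were among the markers not in the list. Markers of other cell types were mostly not listed: 1 of 6 leukocyte (CD68, 25.6 to 26.8 against 25.6 to 26.9), 1 of 4 endothelial (PECAM1, 53.0 to 55.2 against 22.6 to 24.01), 1 of 6 fibroblast and smooth muscle (COL1A1, 23.6 to 25.4 against 20.6 to 28.7), and 0 of 3 erythroid and 0 of 3 neural genes. The part of these marker differences in the results below was not tested.

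Knockdown was accompanied by changes in both directions across the transporters. Of the 139 members, 33 were called higher and 46 lower, and 60 were not called. A call means an adjusted p under 0.05 in a limma model of log2(value + 0.5), with Benjamini-Hochberg adjustment over all 12227 genes and no minimum fold. The share of members called was 56.8%, against 60.9% of all listed genes. Called higher were 23.7% of members and 33.0% of all genes, and called lower were 33.1% of members and 27.8% of all genes. The median log2 fold change was -0.02 over the members and 0.02 over all genes, and the median absolute log2 fold change was 0.20 and 0.21. The values of the 3 control and 3 knockdown libraries did not overlap for 84 members (60.4%), against 64.8% of all genes. The share called in either direction and the share not overlapping were thus near those of the whole table.

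Most of the called changes were small. Of the 79 called members, 54 changed by less than 1.5-fold in the ratio of group means. A called change of at least 1.5-fold was found for 25 members (18.0%), against 12.3% of all genes. Among the 11609 genes that reach the members' minimum mean of 5, the share was 10.9%. Of the 25 members, 10 were higher and 15 lower, while over all genes the corresponding shares were 5.89% higher and 6.45% lower. Among the 15 is SLC22A31, which reached the minimum mean only through its control libraries. At 2-fold or more, 5 members were called, against 4.10% of all genes. Of the 11609 genes with a mean of at least 5, 181 were higher and 194 lower at that fold. SLC43A1, SLC2A12, SLC48A1 and SLC29A4 were the 4 members that were lower. In a limma test against a change of 1.5-fold rather than against no change (treat), 10 members passed, 2 higher and 8 lower, among them SLC37A2 higher, and SLC43A1, SLC2A12, SLC48A1, SLC29A4, SLCO4A1, SLC19A2, SLC4A7 and SLC6A6 lower. That test called 5.32% of all genes.

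**Figure D1:**
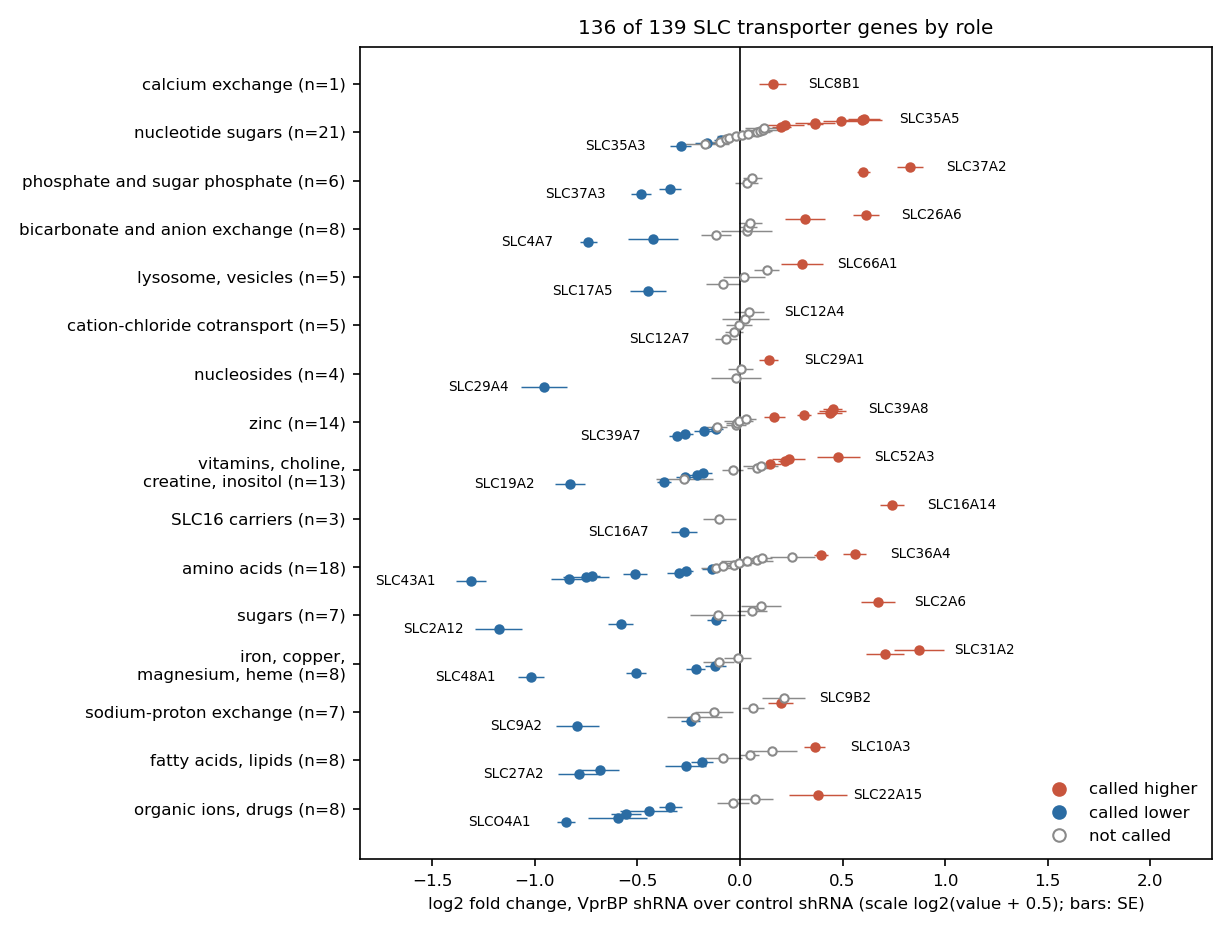
Log2 fold change (VprBP shRNA over control shRNA, on the scale log2(value + 0.5)) of 136 of the 139 transporter genes, in rows by transport role with the number of genes drawn. Points are estimates and bars their standard errors, with filled red points called higher, filled blue points called lower and open points not called. SLC43A1 stands at -1.31, and most other points lie between -1 and 1.

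The start regions of 4 members with large changes are printed because they hold a searched motif and belong to genes that moved in opposite directions. They were chosen after their values were seen. The sequences are RefSeq promoters on GRCh38.p14, from 250 bases before to 50 after the start, written 5′ to 3′ on the strand of the gene. Capitals mark motif matches, found on either strand: CACGTG (the E-box core), TGCGCNC or TGCACNC (the metal response element core), TGACTCA (the AP-1 site) and the interferon response element core. SLC43A1, called lower, lies at chr11:57515653-57515952 on the minus strand, with CACGTG 112 bases before the start and a metal response element core, read on the other strand, 49 bases before it. SLC41A2, called higher, lies at chr12:104958697-104958996 on the minus strand, with CACGTG 26 bases after the start. SLC20A1, called higher, lies at chr2:112645689-112645988 on the plus strand, with CACGTG 206 bases before the start. SLC2A12, called lower, lies at chr6:134052575-134052874 on the minus strand, with TGACTCA 98 bases and the interferon response element core 17 bases before the start.
SLC43A1: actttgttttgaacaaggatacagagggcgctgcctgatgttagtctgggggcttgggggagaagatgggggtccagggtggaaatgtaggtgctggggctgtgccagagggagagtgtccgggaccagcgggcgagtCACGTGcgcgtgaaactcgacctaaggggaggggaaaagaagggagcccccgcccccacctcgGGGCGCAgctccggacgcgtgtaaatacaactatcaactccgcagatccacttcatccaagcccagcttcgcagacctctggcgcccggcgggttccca
SLC41A2: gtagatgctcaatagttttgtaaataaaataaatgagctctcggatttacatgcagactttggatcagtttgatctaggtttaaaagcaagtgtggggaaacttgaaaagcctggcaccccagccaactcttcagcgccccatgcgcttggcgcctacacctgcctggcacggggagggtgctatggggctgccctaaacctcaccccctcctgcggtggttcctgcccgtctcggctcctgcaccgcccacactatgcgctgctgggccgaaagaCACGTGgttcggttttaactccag
SLC20A1: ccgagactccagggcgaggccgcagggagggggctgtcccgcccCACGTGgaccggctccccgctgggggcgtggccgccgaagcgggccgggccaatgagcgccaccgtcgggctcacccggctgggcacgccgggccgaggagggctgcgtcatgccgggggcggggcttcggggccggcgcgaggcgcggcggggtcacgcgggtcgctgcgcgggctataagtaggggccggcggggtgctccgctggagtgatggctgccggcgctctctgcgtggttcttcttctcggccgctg
SLC2A12: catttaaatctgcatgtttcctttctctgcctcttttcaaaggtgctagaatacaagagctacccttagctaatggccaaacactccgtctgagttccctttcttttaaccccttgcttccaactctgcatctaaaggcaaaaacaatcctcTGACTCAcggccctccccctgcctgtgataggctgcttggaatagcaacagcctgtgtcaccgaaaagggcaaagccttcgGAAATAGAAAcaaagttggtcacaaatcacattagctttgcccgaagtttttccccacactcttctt

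A start region was matched by symbol for 113 of the 139 members. CACGTG was present in 12 of them (10.6%), against 7.43% of the 27305 promoters of the same length in the table. It was found in 5 of 27 members called higher (SLC41A2, SLC20A1, SLC29A1, SLC35E3 and SLC39A11), in 1 of 34 called lower (SLC43A1) and in 6 of 52 not called. The metal response element core was present in 33.6% of member promoters and 29.3% of all promoters, in 11 of 27 called higher and 8 of 34 called lower. Motif shares among all genes called higher or lower were not computed, so no difference between directions is read from these counts. TGACTCA was present in 5.31% and 4.92%, TGATGNAA (the amino acid response element core) in 3.54% and 3.67%, TATAAA in 4.42% and 11.95%, and the interferon response element core in 0.885% and 3.65%. Members' start regions had a median GC content of 67%, against 58.3% over all promoters. The 27305 RefSeq promoters are not limited to genes of the deposited table, whereas members had to reach a minimum level. The part of that choice in these differences was not tested. A match is a description of the letters and not evidence of binding, and a region without a match says nothing of the factor.

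The SLC16 family includes carriers of lactate and pyruvate. SLC16A14 was at 21.9, 21.6 and 22.1 in control and 38.3, 36.1 and 36.1 in knockdown libraries, a 1.69-fold rise (limma adjusted p = 2.01e-08). SLC16A7, the high-affinity pyruvate carrier MCT2, fell 1.21-fold from 29.7 ± 1.11 to 24.5 ± 1.47 (mean ± SD over 3 libraries, as below, limma adjusted p = 0.00185), and SLC16A9 was not called (15.5 ± 0.741 and 14.4 ± 0.862).

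Among 18 amino acid transporters of the plasma membrane and lysosome, 8 fell, 2 rose and 8 were not called. The grouping follows SLC family numbers, so SLC43A3, a purine nucleobase carrier, is counted here. SLC43A1 (LAT3, a facilitative carrier of large neutral amino acids, ENSG00000149150.9, chr11:57484534-57515780, minus strand) had values of 29.5, 31.0 and 31.0 in control and 11.4, 11.8 and 12.9 in knockdown libraries. It fell 2.54-fold (log2 fold change -1.31, SE 0.07, 95% interval -1.47 to -1.16, limma adjusted p = 2.18e-10), the largest fall of any member, and its groups lay far apart. SLC7A2 (CAT2, a cationic amino acid carrier) was at 19.3, 20.5 and 21.3 in control and 10.0, 11.96 and 11.6 in knockdown libraries, 1.82-fold lower (limma adjusted p = 4.26e-07). SLC6A6, the taurine transporter, was at 179, 172 and 178 in control and 104, 111 and 106 in knockdown libraries, 1.65-fold lower (limma adjusted p = 1.55e-10). For both genes the lowest control library was well above the highest knockdown library.

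Both glutamate transporters among the members fell. SLC1A1 (EAAT3, which also takes up cysteine) was at 9.93, 10.7 and 8.68 in control and 5.49, 5.67 and 5.58 in knockdown libraries, 1.75-fold lower (limma adjusted p = 2.36e-05). SLC1A3 (EAAT1) fell 1.44-fold, from 42.8 ± 2.46 to 29.8 ± 0.469 (limma adjusted p = 1.17e-06). Smaller falls were called for SLC6A9 (the glycine transporter GlyT1, 1.23-fold), SLC38A1 (the glutamine carrier SNAT1, 1.20-fold) and SLC38A10 (1.1-fold). The SLC38A10 call was lost without control library 1, control library 3 or knockdown library 1 (limma adjusted p = 0.0939, 0.132 and 0.0824). In the other direction, SLC36A4, a carrier of proline and tryptophan, was at 30.9, 31.5 and 30.8 in control and 44.9, 44.1 and 49.1 in knockdown libraries, a 1.48-fold rise (limma adjusted p = 3.58e-07). SLC43A3 rose 1.31-fold, from 211 ± 7.67 to 277 ± 1.67. SLC38A9, the lysosomal arginine sensor, was not called (log2 fold change 0.25, limma adjusted p = 0.0524, and 0.0101 without control library 2), nor were SLC36A1, SLC15A4, SLC43A2, SLC38A7, SLC38A6, SLC7A6 and SLC6A11.

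Of 7 sugar transporters 3 fell and 1 rose. SLC2A12 (GLUT12, ENSG00000146411.6, chr6:133987581-134052624, minus strand) was at 10.6, 13.0 and 12.6 in control and 5.27, 5.33 and 4.58 in knockdown libraries, 2.39-fold lower (log2 fold change -1.18, SE 0.11, limma adjusted p = 2.01e-07). SLC2A6 (GLUT6) moved the other way, from 11.99, 12.9 and 12.3 in control to 21.3, 20.9 and 18.2 in knockdown libraries, a 1.62-fold rise (limma adjusted p = 3.01e-06). For both SLC2A12 and SLC2A6 the control and knockdown libraries did not overlap. Set aside by name and not counted among the 7 were SLC2A1 and SLC45A3. SLC2A1 was 2.18-fold higher (limma adjusted p = 1.35e-12) and SLC45A3 1.28-fold lower (limma adjusted p = 1.01e-05). SLC45A4 fell 1.503-fold, from 40.7 ± 1.54 to 27.1 ± 1.56, and SLC50A1, the SWEET-type sugar carrier, fell 1.08-fold (limma adjusted p = 0.0474), a call lost without any 1 of the 5 libraries other than control library 1 (limma adjusted p 0.0592 to 0.196). SLC2A8, SLC2A10 and SLC2A11 were not called. Per kilobase of exon, the level of SLC2A12 went from 2.70 to 1.13 and that of SLC2A6 from 3.50 to 5.68, both far below the 28.96 of SLC50A1 in control libraries.

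Metal carriers other than zinc transporters numbered 8, of which 4 fell and 2 rose. SLC48A1 (HRG1, which moves heme out of endolysosomes, ENSG00000211584.14, chr12:47753916-47782751, plus strand) was at 35.6, 34.7 and 34.5 in control and 17.1, 16.2 and 17.7 in knockdown libraries, 2.05-fold lower (log2 fold change -1.02, SE 0.06, limma adjusted p = 1.03e-09). On the opposite strand it overlaps RAPGEF3, which fell as well, from 10.8 to 5.17, and HDAC7, at 87.2 in control and 87.1 in knockdown libraries. With strand handling not given in the sources used here, reads of such overlapping partners cannot be told apart. The copper pair divided: SLC31A1 (CTR1, the plasma membrane copper importer) fell 1.43-fold from 75.7 ± 3.28 to 53.1 ± 1.29 (limma adjusted p = 1.47e-07). SLC31A2 (CTR2, its relative in endosomes and lysosomes) was at 5.81, 4.91 and 6.61 in control and 9.77, 11.2 and 11.9 in knockdown libraries, 1.89-fold higher (limma adjusted p = 1.26e-05). SLC41A2, a magnesium transporter, was at 9.83, 10.1 and 11.1 in control and 15.4, 18.4 and 17.9 in knockdown libraries, 1.67-fold higher (limma adjusted p = 5.38e-06), and its groups did not overlap. Its relative SLC41A1 fell 1.09-fold and the iron importer SLC11A2 (DMT1) 1.16-fold, while SLC41A3 and SLC49A4 were not called. The SLC41A1 call was lost without any 1 of the 5 libraries other than knockdown library 3 (limma adjusted p 0.0711 to 0.170).

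Of the 14 zinc transporters among the members, 5 rose, 4 fell and 5 were not called, and none reached 1.5-fold. SLC39A10, 2.14-fold lower (limma adjusted p = 1.55e-11), and SLC30A1, 1.71-fold higher (limma adjusted p = 8.45e-09), are zinc transporters set aside by name and not counted among the 14. SLC39 (ZIP) proteins bring zinc into the cytosol and SLC30 (ZnT) proteins move it out or into compartments. SLC39A8 (ZIP8, also a manganese importer) rose 1.37-fold, from 42.8 ± 0.356 to 58.7 ± 0.519 (limma adjusted p = 4.44e-07). SLC39A4 (ZIP4) rose 1.37-fold, from 73.4 ± 6.22 to 101 ± 9.70, SLC30A6 1.36-fold, SLC39A1 1.24-fold and SLC39A11 1.12-fold. SLC39A7 (ZIP7, which releases zinc from the endoplasmic reticulum) fell 1.24-fold, from 221 ± 4.32 to 178 ± 5.20 (limma adjusted p = 1.57e-06), SLC39A9 1.20-fold, SLC30A5 1.13-fold and SLC39A14 1.09-fold. Importers were thus found in both directions. SLC39A7 overlaps RXRB on the opposite strand, whose log2 fold change was -0.28.

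Among 8 organic ion and drug carriers, 5 fell and 1 rose. SLCO4A1 (OATP4A1, an organic anion carrier, ENSG00000101187.16, chr20:62642503-62685785, plus strand) was at 475, 441 and 476 in control and 267, 266 and 239.9 in knockdown libraries. It fell 1.80-fold (log2 fold change -0.85, SE 0.04, limma adjusted p = 6.79e-11). In control libraries it had the highest level per kilobase of exon of all members (115), and in knockdown libraries 63.6. Of the 5 SLC22 members, SLC22A31 fell 1.57-fold, SLC22A23 1.47-fold, SLC22A18 1.38-fold and SLC22A5 (OCTN2, the carnitine transporter) 1.27-fold. SLC22A15 rose 1.33-fold, from 4.81 ± 0.820 to 6.38 ± 0.678 (limma adjusted p = 0.0278), and its limma adjusted p was 0.133 without control library 2 and 0.0990 without knockdown library 3. The SLC22A18 call was lost without control library 1 (limma adjusted p = 0.0653) or knockdown library 3 (0.0533). SLCO1B3 and SLCO3A1 were not called.

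Of 4 members of the SLC29 nucleoside transporter family, SLC29A4 fell and SLC29A1 rose. SLC29A4 (PMAT, a carrier of monoamines, ENSG00000164638.11, chr7:5274369-5306912, plus strand) was at 9.68, 11.6 and 9.72 in control and 5.09, 5.00 and 5.09 in knockdown libraries, 2.04-fold lower (log2 fold change -0.96, SE 0.11, limma adjusted p = 1.72e-06). It overlaps TNRC18 on the opposite strand, which went from 135 to 83.3 (log2 fold change -0.70). SLC29A1 (ENT1, the main equilibrative carrier of nucleosides) was 1.1-fold higher, from 78.9 ± 3.18 to 87.0 ± 3.05 (limma adjusted p = 0.0137), and its adjusted p was 0.0640 without control library 3 and 0.0664 without knockdown library 2. SLC29A2 and SLC29A3 were not called, at 29.9 ± 1.12 against 30.0 ± 1.13 and 5.84 ± 0.374 against 5.76 ± 0.482.

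In the group that carries vitamins, choline, creatine and inositol, 5 of 13 fell and 4 rose. SLC19A2, the thiamine transporter THTR1, was at 32.1, 33.8 and 28.5 in control and 17.4, 18.2 and 16.9 in knockdown libraries, 1.80-fold lower (log2 fold change -0.83, SE 0.07, limma adjusted p = 7.15e-08). Its relative SLC19A1, the reduced folate carrier, was not called, at 75.1 ± 5.17 against 73.2 ± 2.05. The creatine transporter SLC6A8 fell 1.29-fold, from 219 ± 7.04 to 169.6 ± 2.17, the inositol carrier SLC5A3 1.20-fold, the vitamin C carrier SLC23A2 1.16-fold and the choline carrier SLC44A1 1.13-fold. Rises were called for the riboflavin carrier SLC52A3 (1.41-fold, 10.5 ± 1.498 to 14.8 ± 0.940), the proton-coupled folate carrier SLC46A1 (1.18-fold), SLC44A2 (1.16-fold) and the biotin and pantothenate carrier SLC5A6 (1.11-fold). The SLC46A1 call was lost without control library 1, knockdown library 1 or knockdown library 3 (limma adjusted p 0.0575 to 0.0947), and the SLC5A6 call without control library 1, control library 3, knockdown library 2 or knockdown library 3 (0.0697 to 0.116). The SLC5A6 call was also lost with median-ratio scaling (limma adjusted p = 0.0696), a common total (0.0622) and limma-voom (0.0750). The other riboflavin carrier, SLC52A2, was not called (281 ± 19.2 against 298 ± 19.1), and without knockdown library 3 its limma adjusted p was 0.00726.

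Carriers that move acid and base also split. Among 8 bicarbonate and anion exchangers, 2 rose and 2 fell. SLC4A7 (NBCn1, sodium-coupled bicarbonate uptake, ENSG00000033867.18, chr3:27372723-27484420, minus strand) was at 184, 190.1 and 187 in control and 107, 111 and 118 in knockdown libraries, 1.67-fold lower (log2 fold change -0.74, SE 0.04, limma adjusted p = 1.94e-10). SLC26A6, an exchanger of chloride, oxalate and bicarbonate, was at 27.0, 28.7 and 24.8 in control and 39.2, 42.3 and 42.4 in knockdown libraries, 1.54-fold higher (limma adjusted p = 5.1e-07). SLC26A11 fell 1.38-fold and the anion exchanger SLC4A3 (AE3) rose 1.26-fold (limma adjusted p = 0.0104, and 0.0508 without control library 2 or 0.0707 without knockdown library 2). SLC4A2 (AE2), with the highest level per kilobase of this group, was not called, at 238 ± 13.6 against 244 ± 9.67.

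Of 8 sodium-proton exchangers 2 fell, 1 rose and 5 were not called. SLC9A2 (NHE2) was at 11.99, 10.8 and 10.6 in control and 5.70, 6.76 and 6.24 in knockdown libraries, 1.79-fold lower (limma adjusted p = 7.94e-06). SLC9A7, an exchanger of the trans-Golgi network, fell 1.18-fold and SLC9A8 rose 1.15-fold. Of 6 cation-chloride cotransporters, 1 fell and 5 were not called, among them SLC12A2 (NKCC1, 65.9 ± 1.79 against 64.5 ± 1.54) and SLC12A7 (KCC4, 70.1 ± 3.87 against 66.8 ± 3.84). SLC8B1, the sodium-calcium exchanger of the mitochondrial inner membrane, was called higher with overlapping groups (48.6, 47.9 and 45.5 against 53.9, 58.4 and 47.0). Its limma adjusted p of 0.0498 rose to between 0.0705 and 0.274 without any 1 of the 5 libraries other than knockdown library 3, and it was 0.0962 with median-ratio scaling, 0.0952 with a common total, 0.0501 with a pseudocount of 0.1 and 0.0663 with limma-voom.

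Phosphate and sugar phosphate carriers comprised 6 members, with 2 rises and 2 falls. SLC20A1 (PiT-1, sodium-coupled phosphate uptake) was at 265, 268 and 262 in control and 397, 396 and 415 in knockdown libraries, 1.52-fold higher (log2 fold change 0.60, SE 0.03, limma adjusted p = 1.5e-10). The other phosphate importer, SLC20A2 (PiT-2), fell 1.27-fold, from 40.6 ± 1.47 to 31.9 ± 0.349 (limma adjusted p = 4.98e-05). SLC37A2, a sugar phosphate exchanger of the endoplasmic reticulum, was at 17.5, 17.5 and 18.0 in control and 31.2, 32.4 and 31.7 in knockdown libraries, 1.80-fold higher (limma adjusted p = 9.67e-09). Its relative SLC37A3 fell 1.40-fold, whereas SLC37A4, the glucose-6-phosphate carrier, and SLC37A1 were not called.

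The SLC35 family, which includes the nucleotide sugar carriers of the Golgi and endoplasmic reticulum, was the largest with 21 members, of which 7 rose, 3 fell and 11 were not called. Several of its members have other known substrates. SLC35A5 was at 14.8, 14.7 and 16.4 in control and 22.7, 22.9 and 25.2 in knockdown libraries, 1.54-fold higher (limma adjusted p = 3.95e-06). SLC35D1, which brings UDP-glucuronic acid and UDP-N-acetylgalactosamine into the endoplasmic reticulum, was at 11.0, 13.2 and 14.3 in control and 19.3, 18.2 and 21.1 in knockdown libraries, 1.52-fold higher (limma adjusted p = 5.21e-05). SLC35B3 was at 9.07, 9.41 and 8.97 in control and 13.4, 12.5 and 13.4 in knockdown libraries, 1.43-fold higher (limma adjusted p = 0.000154). SLC35B3 and SLC35B2 are the Golgi carriers of the sulfate donor PAPS, and SLC35B2 rose too, by 1.15-fold. SLC35E3 (1.31-fold), SLC35B1 (1.29-fold) and SLC35D2 (1.17-fold) completed the rises, and the SLC35D2 call was lost without any 1 of the 5 libraries other than control library 2 (limma adjusted p 0.0552 to 0.128). It was also lost with median-ratio scaling (limma adjusted p = 0.0786), a common total (0.0742), a minimum mean of 5 (0.0501) and limma-voom (0.0836). The falls were SLC35A3, the UDP-N-acetylglucosamine carrier (1.23-fold, 57.3 ± 3.39 to 46.8 ± 0.492), SLC35C2 (1.12-fold) and SLC35F2 (1.07-fold, limma adjusted p = 0.0318). The SLC35C2 call was lost without control library 1 or knockdown library 3 (limma adjusted p = 0.117 and 0.0539), and the SLC35F2 call without control library 2 or 3 or knockdown library 1 or 2 (0.0699 to 0.115). The CMP-sialic acid carrier SLC35A1 and the UDP-galactose carrier SLC35A2 were not called.

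Among 8 carriers of fatty acids, bile acids and lipids 4 fell and 1 rose, and all 4 that fell belong to the SLC27 family, whose proteins take up fatty acids or join them to coenzyme A. SLC27A2 was at 11.5, 10.7 and 10.4 in control and 6.36, 6.28 and 5.67 in knockdown libraries, 1.78-fold lower (limma adjusted p = 6.81e-06). SLC27A1 fell 1.63-fold, from 16.2 ± 0.994 to 9.95 ± 1.07, SLC27A5 1.21-fold (a call lost without control library 1 or knockdown library 3, limma adjusted p = 0.1299 and 0.144) and SLC27A4 1.14-fold, and SLC27A3 was not called (6.06 ± 0.650 against 6.80 ± 0.518). SLC10A3 rose 1.29-fold, from 48.6 ± 1.73 to 62.7 ± 2.64 (limma adjusted p = 1.19e-05). Of 5 remaining carriers of lysosomes and vesicles, SLC17A5 (sialin, which exports sialic acid from lysosomes) fell 1.38-fold, from 14.1 ± 0.659 to 10.2 ± 0.463 (limma adjusted p = 0.000317). SLC66A1, a lysosomal exporter of cationic amino acids, was called higher with overlapping groups (13.6, 12.5 and 11.9 against 15.8, 18.2 and 13.4, limma adjusted p = 0.0168). SLC18B1, SLC66A2 and SLC66A3 were not called. For SLC66A1 the adjusted p was 0.0579 without control library 3, 0.0508 without knockdown library 1 and 0.113 without knockdown library 2.

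**Figure D2:**
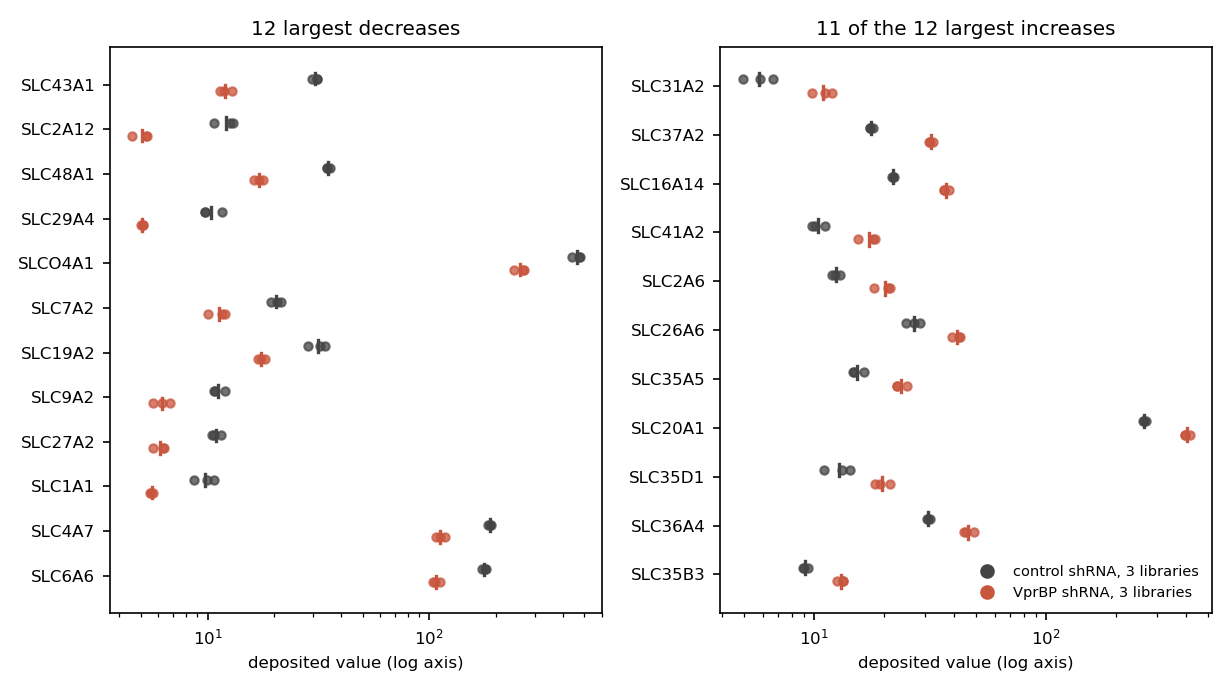
Deposited value (log axis) of each library for the 12 members with the largest called falls (left) and 11 of the 12 with the largest called rises (right), with dark points for the 3 control and red points for the 3 knockdown libraries and short bars for the group means. The groups of these 23 genes do not overlap, which was a condition for choosing them.

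Some relatives within a family went in opposite directions. The members belong to 43 families, of which 28 have at least 2 members and 21 at least 2 called members. In 17 of these 21 families there were both rises and falls, in 4 (SLC1, SLC6, SLC27 and SLC38) only falls, and in 0 only rises. SLC4, SLC5, SLC22, SLC29 and SLC41 count among the 17 only through SLC4A3, SLC5A6, SLC22A15, SLC29A1 and SLC41A1. Each of those calls was lost in at least 2 of 13 alternative fits. SLC38 counts among the 4 only through SLC38A10, a call lost in 3. Of the SLC1 genes set aside by name, SLC1A4 was called higher (1.39-fold, limma adjusted p = 0.000461) and SLC1A5 lower (1.49-fold, limma adjusted p = 3.35e-10). Over all genes 33.0% were called higher and 27.8% lower, so nothing particular to these families is read from the counts. These are counts of calls, and the difference between relatives was not itself tested. Close relatives can also share reads where their sequences match, with the way such reads were divided not given in the sources used here.

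**Figure D3:**
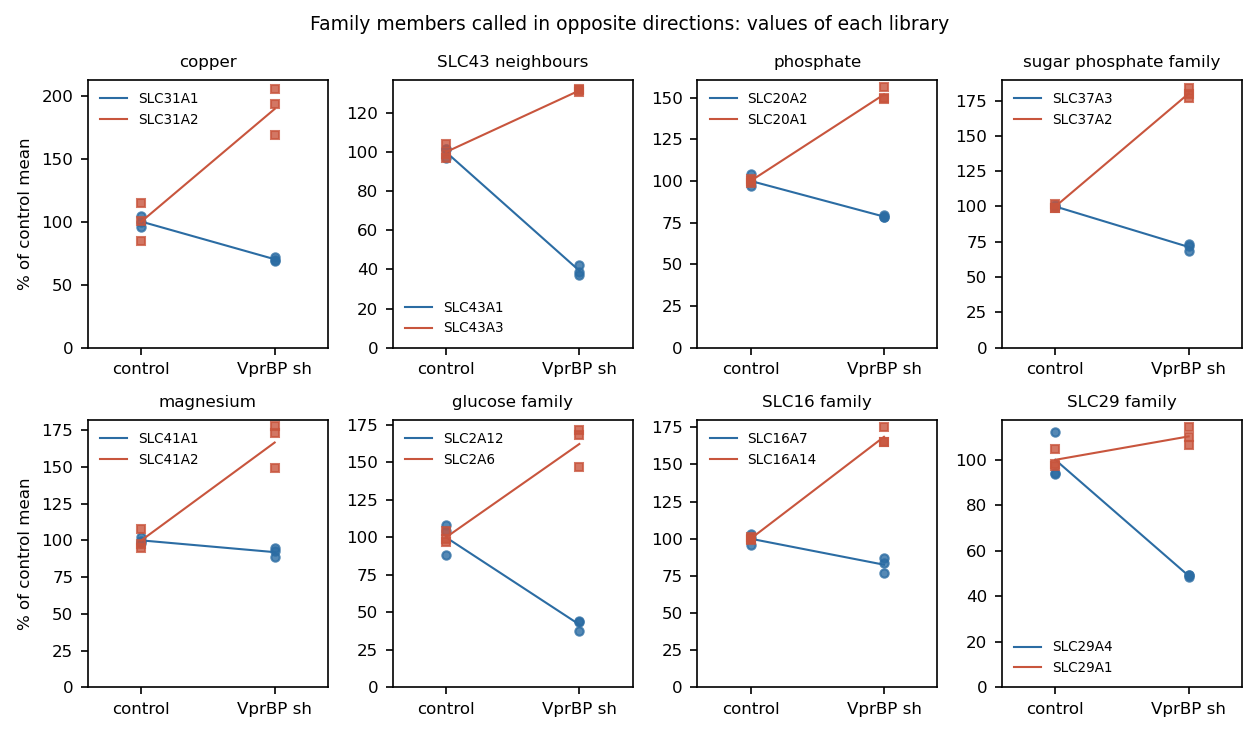
Values of each library as a percent of the gene's control mean, for 8 pairs of relatives called in opposite directions, chosen after their values were seen. Lines join group means, with blue circles for the gene that fell and red squares for the gene that rose. SLC31A1 and SLC31A2 end at 70.1% and 189% of control, and SLC43A1 and SLC43A3 at 39.4% and 131%.

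Members lie on 22 chromosomes, and 4 pairs are within 100000 bases of each other. On chromosome 11, SLC43A3 (higher) and SLC43A1 (lower) are 56953 bases apart, and on chromosome 9, SLC31A2 (higher) and SLC31A1 (lower) are 57403 bases apart. SLC29A1 and SLC35B2, 19953 bases apart on chromosome 6, were both called higher. SLC39A4 was called higher and SLC52A2, 48455 bases away on chromosome 8, was not called. Neighbours thus moved together in 1 pair and apart in 2. On the opposite strand, 31 members overlap another listed gene. SLC31A2 overlaps FKBP15 (log2 fold change 0.24), SLC2A12 overlaps TBPL1 (-0.04) and SLC31A1 overlaps CDC26 (-0.03). PSMG4 (-0.41) and SGSH (-0.34) fell together with the members they overlap, SLC22A23 (-0.56) and SLC26A11 (-0.42). ERH (0.24) and CCDC24 (0.68) rose while SLC39A9 (-0.27) and SLC6A9 (-0.30), which they overlap, fell. The part of partner reads in the members' values was not tested.

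The transporters with the highest levels in control cells, per kilobase of exon in GENCODE 29, were SLCO4A1 (115 in control, 63.6 in knockdown), SLC52A2 (91.3, 96.8), SLC39A7 (77.6, 62.6), SLC35F2 (57.9, 54.3) and SLC38A1 (51.5, 42.8). In knockdown cells SLC20A1 (47.5 in control, 72.2 in knockdown) had a level above those of SLCO4A1 and SLC39A7. The median control level per kilobase was 5.30 over members and 7.33 over the 12012 genes with an exon length. These levels are relative, because the scale of the deposited values is the same in every library but is not a number of molecules. Across members, the log2 fold change had a Spearman correlation of -0.18 with exon length and -0.01 with level, and across all genes -0.16 and 0.00. Genes within these libraries are not independent, so no p-value is given.

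Replicates were close. The median absolute log2 difference over members was 0.0669 to 0.0861 between libraries of a group and 0.197 to 0.237 between libraries of different groups. The median coefficient of variation of a member was 4.80% in control and 4.63% in knockdown libraries, and the highest was 18.7%, for SLC22A18. For the 60 members not called, the 95% interval of the fold lay within 1.5-fold in either direction, so changes of that size were outside the interval for each. Of these 60, 7 had groups that did not overlap, among them SLC35E1 (138, 135 and 133 against 132, 129.8 and 130.2) and SLC6A11 (49.2, 48.1 and 49.6 against 50.2, 55.7 and 52.5). Leaving out 1 library brought a call for 10 of the 60, with these limma adjusted p-values: without control library 2, SLC38A9 (0.0101), SLC4A11 (0.0271) and SLC41A3 (0.0272), without knockdown library 1, SLC6A11 (0.0451), without knockdown library 2, SLC9B2 (0.0346), and without knockdown library 3, SLC52A2 (0.00726), SLC39A6 (0.0162), SLC66A2 (0.0208), SLC35A2 (0.0361) and SLC35B4 (0.0382). SLC39A6 was also called with median-ratio scaling (limma adjusted p = 0.0285), a common total (0.0295) and limma-voom (0.0204).

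Genes that work with these transporters also moved both ways. A list of 50 subunits, regulators, sensors and pumps had 44 listed genes, of which 17 rose, 16 fell and 11 were not called. The share called was 75% (38.6% higher and 36.4% lower), against 60.9% of all genes (33.0% higher and 27.8% lower). The list was chosen with earlier results known, so these shares are a description. Of the rises, the carbonic anhydrase CA9 was 2.51-fold higher, the arrestin-domain adaptor ARRDC3 2.21-fold, the sodium-potassium pump subunit ATP1B1 2.05-fold, the ubiquitin ligase NEDD4 1.67-fold and EMB, a chaperone of SLC16 carriers, 1.43-fold. ATP1B1 went from 145 ± 2.96 to 297 ± 10.8 (limma adjusted p = 7.05e-13). Of the falls, the kinase WNK2 was 1.90-fold lower, the carbonic anhydrase CA12 1.68-fold, ANKH 1.55-fold, the kinase STK39 1.46-fold and the osmotic stress factor NFAT5 1.43-fold. WNK kinases and STK39 act upstream of the SLC12 cotransporters, of which 5 of 6 members were not called. OXSR1, another kinase acting on these cotransporters, was not called (1.03-fold, limma adjusted p = 0.451). All of these are RNA levels, and an effect of the kinases on the cotransporters was not tested.

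**Figure D4:**
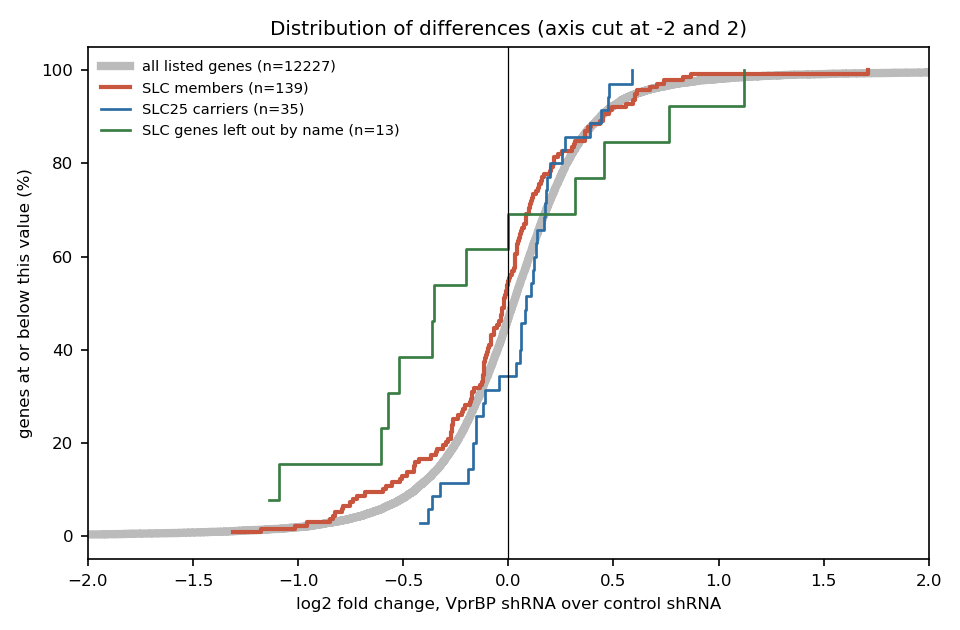
Cumulative share of genes (percent) at or below each log2 fold change (VprBP shRNA over control shRNA), for all 12227 listed genes, the 139 members, the 35 SLC25 carriers and the 13 SLC genes left out by name. The curves of members and all genes lie close together near 0, with medians of -0.02 and 0.02, and the median of the 13 genes left out is -0.35.

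The SLC genes outside the set serve as a comparison without a test. Of the 35 SLC25 carriers, with SLC25A6 counted once, 13 rose and 6 fell, with a median log2 fold change of 0.08, and 1 was called at 1.5-fold or more. Of the 13 listed genes left out by name 4 rose and 8 fell, with a median of -0.35. Since these were set aside with results known, the share called among the 139 members depends on that choice. With them added back, 37 of the transporters were called higher and 54 lower. Of the 5 genes under the minimum mean, SLC7A7 (limma adjusted p = 1.72e-05) and SLC22A4 (limma adjusted p = 0.000969) were called higher, from 1.38 to 4.09 and from 2.62 to 4.73, and SLC24A1, SLC46A3 and SLC28A1 were not called.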

How the data were processed

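RNA-seq of 6 PC3 libraries was used, 3 with control shRNA and 3 with VprBP shRNA, grouped by the labels. A SMARTER mRNA kit and 1.0 ug of total RNA made each library, per the labels' protocols. Per the submitters' processing notes, Partek and the build hg38 were used, with aligner, annotation release and strand setting not given in the sources used here. Although the deposited table is named raw counts, its values are a scaled signal: their upper quartile lay between 78.99 and 79.02 in every library. Low values were spaced by 0.0254 to 0.0439, and 55.2% to 64.8% of values were whole multiples of a library's step (tolerance 0.02 reads), so no count model was used. Shallower libraries carry more counting error for low genes.

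Genes were tested with limma 3.58.1 (R 4.3.3; lmFit and eBayes with trend) on log2(value + 0.5), two-sided, with Benjamini-Hochberg adjustment over 12227 genes and a threshold of 0.05. Fold changes on that scale understate changes of low genes, and printed folds divide 1 group mean by the other. The fit was also run on simulated data in which far fewer genes changed than were called here. That run does not measure the error rate of these calls. Same-numbered libraries of the 2 groups did not deviate together, so no replicate block was used. The alternatives were other scalings (median ratio, common total), pseudocounts of 0.1 and 1, a minimum mean of 5, limma-voom on estimated reads, leaving out each library, a replicate block, treat at 1.5-fold, and other minimum means or memberships.

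The members, the role groups and the lists of partners and markers were chosen with earlier results of these data known. Per-library values are given for the 12 largest called rises and 12 largest called falls without overlap; a few genes under these rules are counted but not reported here by name. Other named genes are up to 2 called per direction in each role group, the member with the highest level per exon length, and up to 5 partners per direction. Members with smaller changes were named to account for each group. Deposited coordinates had their ends reduced by 1, which matched GENCODE 29 for 6958 of 12012 genes (153 without it). Promoters came from RefSeq GRCh38.p14.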

Additional observations from a re-analysis of the deposited data

How the results depend on the processing

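Of the 79 called members, 64 (25 higher, 39 lower) were called in the same direction in the reported fit and under every one of 13 alternative fits (scalings, pseudocounts, minimum mean, limma-voom, replicate block, each library left out), and 15 lost the call in at least 1; among 58 named genes no direction reversed. The median log2 fold change of the members moved from -0.02 to -0.0445 with median-ratio scaling, -0.0422 with a common total and -0.0429 with limma-voom, while the median of all genes shifted by -0.0249, -0.0224 and -0.0214, and with median-ratio scaling the share of called genes that were higher went from 54.3% to 50.04% over all genes and from 41.8% to 39.0% over members. Treat at 1.5-fold called 2 members higher and 8 lower, and 651 of all genes, because it tests a larger change. With members limited to a mean of at least 20, 21 were higher, because fewer genes were counted. Without each library in turn, 28 to 32 members were higher and 41 to 45 lower, the median was -0.0357 to -0.0138, and 6697 to 7405 of all genes were called. With a replicate block for the shared numbers, 31 members were higher and 43 lower, and 7042 of all genes were called. The call was lost for 5 members (SLC41A1, SLC35D2, SLC35F2, SLC50A1 and SLC5A6). The deviations of same-numbered libraries from their group means had correlations of 0.018, -0.156 and -0.168 over genes, so the numbers do not show a pairing. Between differently numbered libraries they went from -0.081 (control 2 with knockdown 1) to 0.185 (control 2 with knockdown 3). A pairing across numbers was not tested. Depth limits calls most for the lowest members, and no whole read numbers were recovered for every gene.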
